A study of Mus musculus with 16 samples.

Results

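Livers of mice given resveratrol on a high-fat feed were compared with livers of mice on the same feed without it. The members are the 8 libraries whose diet label names one of those groups, 4 with resveratrol at 100 mg/kg per day by gavage and 4 with high-fat feed alone, of 16 libraries in the series. The other 8 libraries entered the same statistical fit and are given beside the results: 4 from mice on ordinary feed, and 4 from mice on the high-fat feed gavaged daily with 200 mg/kg of metformin. All mice were C57BL/6J, a common inbred laboratory strain, and the tissue is labelled liver. Every mouse is labelled postnatal day 21, and the labels do not say when feeding or dosing began, how long it lasted, or whether the high-fat group received a sham gavage. A number in the sample titles is the same in all high-fat samples and varies among the resveratrol samples, and its meaning is unknown here. Should it stand for cages or litters, these and the treatment cannot be told apart. Nothing in the labels beyond the separate samples says that each library is a separate mouse, so p-values measure only the spread between these libraries.

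Resveratrol is a plant polyphenol studied mainly for its effects on energy metabolism, in particular through the deacetylase Sirt1 and the AMP-activated protein kinase. In the fed and fasted liver those enzymes sit upstream of glucose production, fat synthesis and fat oxidation. Long non-coding RNAs are transcripts without a protein product. Many lie inside introns or untranslated regions of coding genes, where their reads cannot be separated from those of the host gene's own transcripts when strand is not used.

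The files list long non-coding transcripts only, as FPKM (fragments per kilobase of transcript, scaled to the size of the library). The transcripts of an Ensembl gene were summed, which gave 49988 features, and the 7413 with at least 1 FPKM in at least 4 of the 16 libraries were tested. A symbol given with a feature names the coding gene it lies in or beside on GRCm38, not that gene's messenger RNA. Changes are log2 differences of group means of FPKM + 1, resveratrol minus high fat, with their standard error (SE). A feature was called at an adjusted p under 0.05 by limma, a linear model that shares variance information across features, with Benjamini-Hochberg adjustment over all 7413. In bulk tissue a lower level can reflect fewer cells of a type or less RNA per cell, and these cannot be told apart.

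Library totals ran from 20.8 to 24.0 M reads with resveratrol and from 21.9 to 31.1 M reads on high fat alone. High-fat library 4 stood apart. Its scaling factor, the median over features of its ratio to a geometric-mean library, was 0.691, while the other 3 high-fat libraries lay between 0.943 and 1.048 and the 4 resveratrol libraries between 1.041 and 1.105 (exact permutation p = 0.0857, two-sided). The ribosomal RNA locus took 22.6% of its listed reads, against 10.0% to 12.9% in the other high-fat libraries and 8.80% to 13.4% with resveratrol. Intronic features took 25.1 ± 0.716% of listed reads outside 7SL and ribosomal RNA with resveratrol and 22.5 ± 1.43% without (SD over 4 libraries a group). The exact permutation p was 0.0286, the lowest that 4 against 4 can reach. None of 10 such measures passed adjustment (lowest adjusted p = 0.286), and their part in the results below was not tested. Values scaled by the median ratio, and values without high-fat library 4, are therefore given beside the deposited ones.

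**Figure D1:**
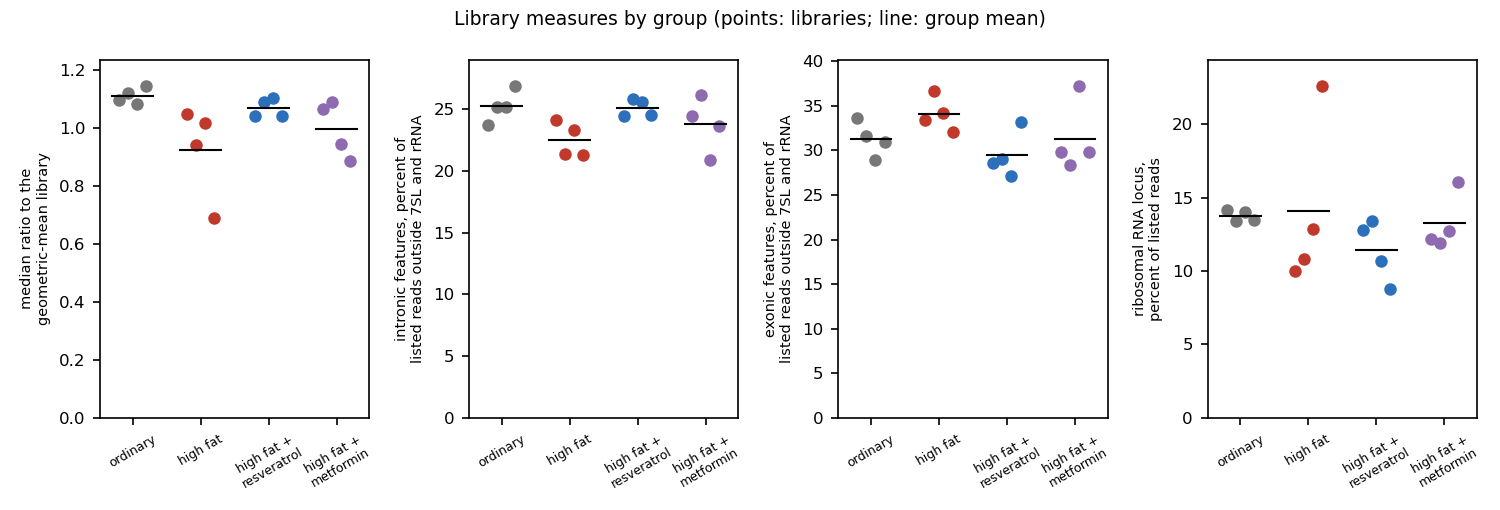
Points are libraries and lines are group means for the median ratio to the geometric-mean library, the percent of listed reads (outside 7SL and ribosomal RNA) in intronic and in exonic features, and the percent of listed reads in the ribosomal RNA locus. High-fat library 4 has the lowest median ratio (0.691) and the highest ribosomal share (22.6%), and the 4 resveratrol libraries lie above the 4 high-fat ones in intronic share.

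Few features differed. Of 7413 features 6 were called (0.0809%). With resveratrol 5 rose, in or beside Mis12, Igfbp2, Acnat1, Gldc and Sox5 (0.0674% of those tested), and 1 fell, within Tacc1 (0.0135%). At an unadjusted p under 0.05 the count was 1006 higher (13.6%) and 194 lower (2.62%), together 16.2%. That split moved with the scale: on median-ratio scaled values 3 features were called higher (0.0405%) and 10 lower (0.135%), and at an unadjusted p under 0.05 the count was 481 higher (6.49%) and 527 lower (7.11%). Scaling moved the median change of all tested features from 0.13 to -0.0038, so a deposited change is best read against 0.13. Without high-fat library 4 the deposited median was 0.06. The count of calls moved with single libraries: it was 1 without high-fat library 3 or 4 or resveratrol library 2, 3 without resveratrol library 1, 11 without resveratrol library 3, 16 without high-fat library 1 and 57 without resveratrol library 4. With the 2 compared groups fitted alone (4 calls), and likewise with no filter on low values (2 calls), only the Mis12 call of the 6 was kept. Calls on the 2 scales shared 4 features, at Mis12, Igfbp2, Acnat1 and Tacc1. By size alone, 107 features (1.44%) were higher by 1 or more in log2 and 51 (0.688%) lower, of which 3 and 0 were called.

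**Figure D2:**
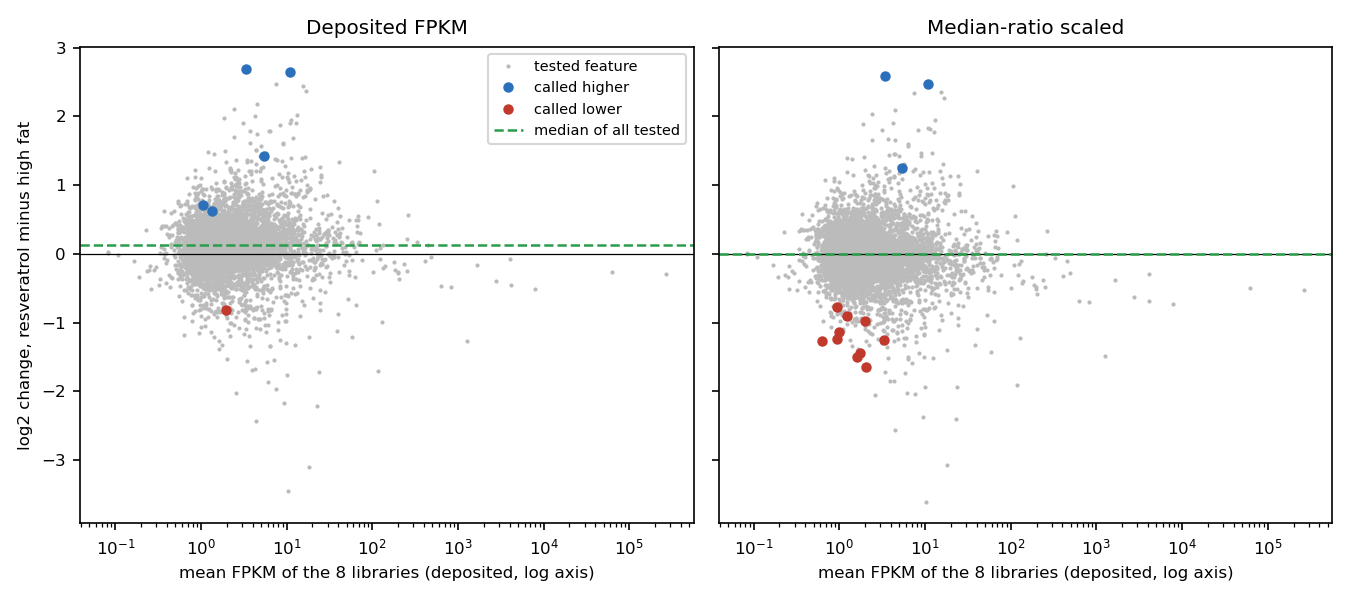
Each point is 1 of 7413 features: its mean FPKM over the 8 libraries (log axis) against its log2 change, on deposited values (left) and after median-ratio scaling (right). The dashed line is the median of all features, 0.13 on the left and -0.0038 on the right, with 5 features called higher and 1 lower on the left, and 3 and 10 on the right.

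The feature in the 3′ UTR of Mis12, a subunit of the kinetochore complex that links chromosomes to spindle fibres, had the highest change (NONMMUT010559.2, chromosome 11, 71025492 to 71027369). High-fat libraries 1 to 4 had 0.211, 0.137, 0.163 and 0.121 FPKM, or 5 to 9 reads each. Resveratrol libraries 1 to 4 had 4.86, 6.20, 8.90 and 6.58 FPKM, or 193 to 348 reads. The groups were far apart, and the feature rose by 2.70 (SE 0.26, limma adjusted p = 0.000224). It was called in all 19 alternatives run, with adjusted p from 2.52e-06 to 0.00209, which include leaving out each of the 8 libraries. The ordinary-feed libraries lay at 4.57 to 7.59 FPKM and the metformin libraries at 2.45 to 8.40, so high fat alone was the low group of the 4. Resveratrol minus ordinary feed was 0.17 (limma adjusted p = 0.842) and resveratrol minus metformin 0.24 (limma adjusted p = 0.870).

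Mis12 belongs to a wider class of features that were on in some libraries and off in others. Among the 7413, 308 (4.16%) had a gap of at least 10 times between their on and off libraries over all 16, with every on value at 1 FPKM or more. This definition was set after the values were seen. Of these, 214 were exonic in 3′ UTRs. Only Mis12 was off in all 4 high-fat and on in all 4 resveratrol libraries, and 1 feature, at Wnk1, had the opposite pattern. In all, 154 were on in more resveratrol than high-fat libraries and 70 in fewer. High-fat library 4 bears on that split: 175 of the 308 were off in it, against 73 to 103 in each other library, and in 64 of the 83 features that were on in 4 resveratrol and 3 high-fat libraries it was the off one. With a gap of 5 times the class held 451 features and the same 1 and 1, and with 20 times 197 features and 0 and 1.

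Such features were also among those with the widest changes that were not called. A 3′ UTR feature of Mxd4, a partner of the growth regulator Max, had 0.165, 28.9, 25.04 and 28.4 FPKM on high fat and 0.156 to 0.180 with resveratrol (-3.45, SE 1.28, limma adjusted p = 0.222). In the 3′ UTR of Cdc37l1, a co-chaperone of Hsp90, the pattern ran the other way, at 0.0375 to 0.0605 FPKM on high fat and 5.95, 6.39, 6.73 and 0.0719 with resveratrol (2.11, SE 0.76, limma adjusted p = 0.215). In each of them a single library sat with the other group. At Sirt1, NONMMUT005901.2 in the 3′ UTR was similar, with 3.60, 0.0788, 0.0804 and 0.0558 FPKM on high fat and 3.01, 4.06, 0.0883 and 3.75 with resveratrol (1.05, SE 0.59, limma adjusted p = 0.384). It was thus on in 1 high-fat and 3 resveratrol libraries. The 3′ UTR feature of Peg3, an imprinted zinc finger gene, is outside this class, since metformin library 3 had 0.359 FPKM. It had 0.0708 to 0.117 FPKM on high fat and 3.35, 3.74, 6.07 and 1.42 with resveratrol (1.97, SE 0.46, limma adjusted p = 0.102).

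The intron of Igfbp2 held the second called feature (NONMMUT001470.2, chromosome 1, 72832881 to 72834402). Igfbp2 encodes a circulating protein, made largely in liver, that binds insulin-like growth factors. On high fat the libraries had 2.00, 3.93, 1.15 and 1.29 FPKM, and with resveratrol 36.9, 16.6, 9.09 and 15.8 FPKM. No value overlapped, although resveratrol library 1 was well above its group. The feature rose by 2.65 (SE 0.37, limma adjusted p = 0.0139), and by 2.48 on scaled values (limma adjusted p = 0.0207). The call was lost without high-fat library 3 (limma adjusted p = 0.0912) or 4 (0.0666) or resveratrol library 2 (0.0635), and on scaled values without high-fat library 4 (0.0639). It was also lost with the 2 groups fitted alone (0.101) and with no filter (0.0526), and the lowest of the alternatives was 0.00322. Ordinary feed gave 10.8 to 18.7 FPKM and metformin 7.16 to 16.6, so the resveratrol livers lay around the ordinary-feed level (0.19, limma adjusted p = 0.888).

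The 250 bases before the first of 2 Igfbp2 starts (RefSeq, GRCm38.p6, chr1:72824230-72824479, plus strand) are shown because this gene held the called feature of the insulin and growth factor list. In that list 17 of 36 genes had a feature. At an unadjusted p under 0.05, 2 were higher and 0 lower, beside 13.6% and 2.62% of all features. On scaled values the counts were 1 and 3, beside 6.49% and 7.11%. Capitals mark an E-box, CACGTG, found 142 bases before the start. Both strands were searched. The E-box is held by 6.02% of 32851 promoters of the same length. The forkhead element GTAAACA is held by 3.17%, the nuclear receptor element AGGTCA by 14% and the sterol regulatory element TCACNCCAC by 1.05%. The window of the other start, chr1:72825137-72825386, holds the letters of none of the 4 and is not printed. A match is a description of letters and no evidence of binding.
Igfbp2 promoter: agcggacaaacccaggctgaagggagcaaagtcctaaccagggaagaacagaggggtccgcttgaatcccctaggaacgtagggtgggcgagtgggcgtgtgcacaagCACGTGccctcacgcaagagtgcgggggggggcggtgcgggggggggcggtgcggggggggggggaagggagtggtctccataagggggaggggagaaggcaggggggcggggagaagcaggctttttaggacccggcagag

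Upstream of Acnat1 by 4.47 kb lay the next feature (NONMMUT047231.2, chromosome 4, 49478386 to 49481012). Acnat1 joins fatty acids to taurine in peroxisomes. High-fat libraries had 3.02, 2.89, 2.25 and 1.49 FPKM and resveratrol libraries 10.8, 11.1, 6.97 and 4.80 FPKM. The groups did not overlap, and the feature rose by 1.43 (SE 0.23, limma adjusted p = 0.0314). Without high-fat library 3 (limma adjusted p = 0.108) or 4 (0.0719), or resveratrol library 1 (0.122) or 2 (0.141), the call was lost, as it was on scaled values without high-fat library 4 (0.0974). With the 2 groups fitted alone the limma adjusted p was 0.209 and with no filter 0.111, and the lowest of the alternatives was 0.00463. A second feature of the gene, partly exonic in its 3′ UTR (NONMMUT047227.2), had 24.6 to 40.8 FPKM on high fat and 40.7 to 46.6 with resveratrol (0.36, SE 0.18, limma adjusted p = 0.336). Ordinary feed had 10.6 to 14.6 FPKM of the upstream feature, and resveratrol libraries 1 and 2 lay in that range (-0.56, limma adjusted p = 0.310).

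A low feature in an intron of Gldc, the glycine decarboxylase of the mitochondrial glycine cleavage system, also rose (NONMMUT034407.2, chromosome 19, 30164751 to 30165769). It had 0.649, 0.568, 0.344 and 0.626 FPKM on high fat, or 8 to 18 reads, and 1.90, 1.51, 1.23 and 1.54 with resveratrol, or 26 to 41 reads. The change was 0.72 (SE 0.12, limma adjusted p = 0.0314). Here the resveratrol livers stayed below ordinary feed, where the libraries had 2.91 to 3.55 FPKM (-0.76, limma adjusted p = 0.0234). The call against high fat was lost on scaled values (limma adjusted p = 0.069) and without high-fat library 2 (0.0554), 3 (0.128) or 4 (0.0699) or resveratrol library 1 (0.129) or 2 (0.141). It was also lost with the 2 groups fitted alone (0.126) and with no filter (0.111). The range was 0.00828 to 0.141.

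In an intron of Sox5, a transcription factor of the SOX family, the feature NONMMUT059409.2 (chromosome 6, 144185984 to 144189489) had 1.02, 0.825, 0.724 and 0.832 FPKM on high fat. It had 1.95, 2.18, 1.84 and 1.48 FPKM with resveratrol, again without overlap, and rose by 0.63 (SE 0.11, limma adjusted p = 0.0395). On scaled values it was not called (0.50, limma adjusted p = 0.069). Nor was it called without high-fat library 2 (limma adjusted p = 0.0908), 3 (0.136) or 4 (0.0836) or resveratrol library 1 (0.143), 2 (0.168) or 3 (0.0653), with the 2 groups fitted alone (0.163) or with no filter (0.157), over a range of 0.0111 to 0.168.

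The feature that fell lay in an intron of Tacc1, a protein of the centrosome and spindle (NONMMUT130078.1, chromosome 8, 25224918 to 25225781). High-fat libraries had 2.50, 2.64, 3.34 and 2.69 FPKM, or 49 to 71 reads, and resveratrol libraries 0.985, 1.01, 1.33 and 1.26, or 18 to 25 reads. Its change was -0.82 (SE 0.13, limma adjusted p = 0.0264), and -0.97 on scaled values (limma adjusted p = 0.00986). The ordinary-feed and metformin libraries, at 1.03 to 1.98 and 0.703 to 1.13 FPKM, lay near the resveratrol level. Leaving out high-fat library 3 (limma adjusted p = 0.0986) or 4 (0.0666), or resveratrol library 1 (0.0981) or 2 (0.141), ended the call, as did fitting the 2 groups alone (0.0675) or using no filter (0.0909), over a range of 0.00796 to 0.141.

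**Figure D3:**
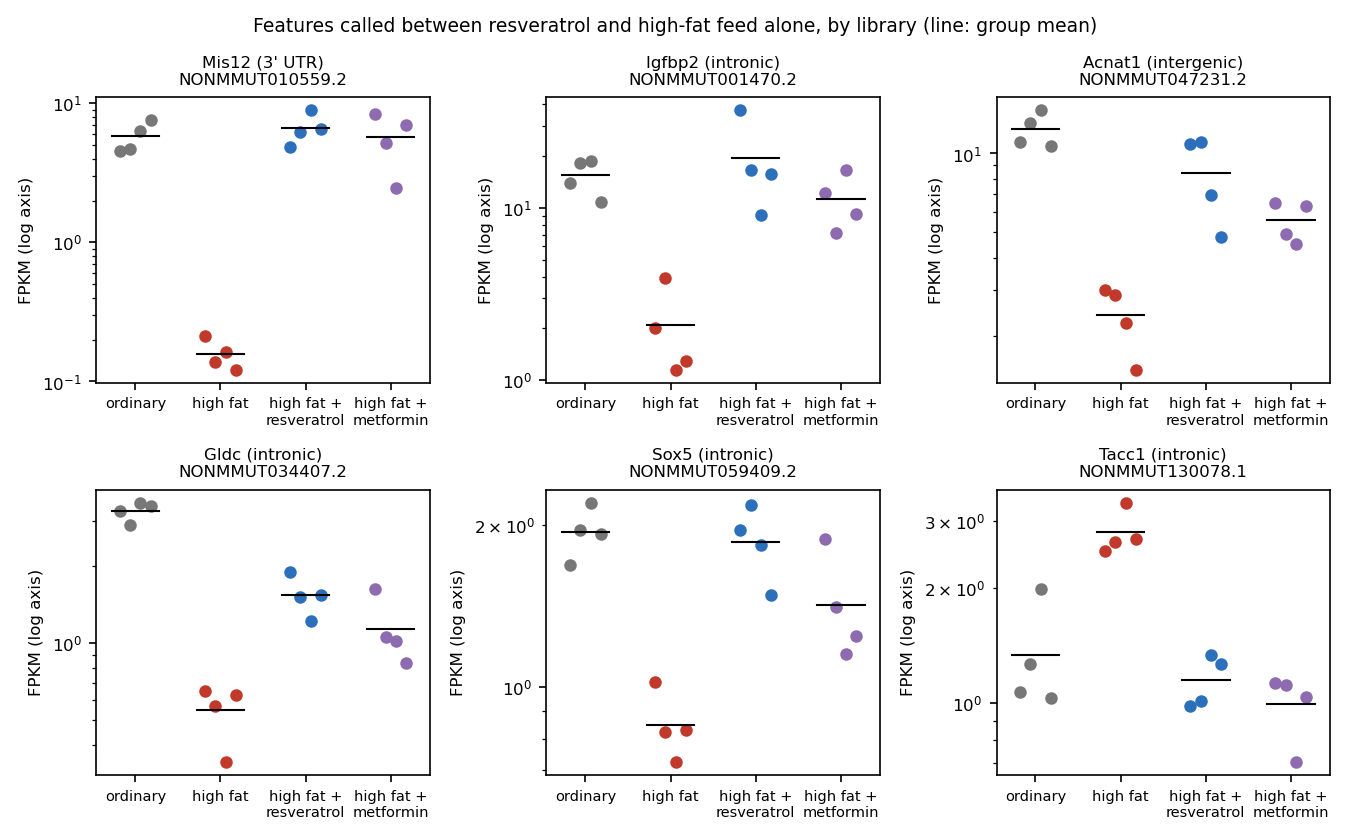
Each panel shows 1 called feature, with FPKM on a log axis, points for the 4 libraries of each group and a line at the group mean. In all 6 panels the high-fat and resveratrol libraries do not overlap, and high fat alone is the lowest group in 5 panels and the highest at Tacc1. The features were picked by a difference between high fat and resveratrol, so high fat as an extreme group was favoured in advance.

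Resveratrol livers were also compared with the other groups. Against ordinary feed 21 features were called (0.283%), 11 higher (0.148%) and 10 lower (0.135%). That count was 1 without resveratrol library 4, 2 without resveratrol library 1 or ordinary-feed library 3, and 5 to 10 without ordinary-feed library 1 or 2 or resveratrol library 2 or 3. Against metformin limma called 0, with 471 features (6.35%) at an unadjusted p under 0.05 and 0 called by limma-voom on reads recovered from the FPKM values, and 1 was called without resveratrol library 1. These comparisons share libraries with the main one, so their values are given side by side and no agreement between them is counted. High-fat values also helped pick the named features, so their place beside ordinary feed or metformin is no separate support. A 3′ UTR feature of Agfg1, a nucleoporin-like protein, was among those lower than on ordinary feed, at 0.0808 to 0.103 FPKM with resveratrol against a mean of 2.76 (-1.77, limma adjusted p = 2.17e-06). On high fat it had 0.0360 to 0.112 FPKM (0.03, SE 0.12, limma adjusted p = 0.933). An assembled transcript beside Cyp2c29, a cytochrome P450 of a family with near-identical members whose reads may be shared, had 4.28, 1.80, 0.643 and 0.536 FPKM on high fat. With resveratrol it had 15.99, 14.7, 8.19 and 13.6 (2.48, SE 0.59, limma adjusted p = 0.110). It was higher than on ordinary feed by 3.20 (limma adjusted p = 0.0377).

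Beyond the calls, features with the lowest p and no overlap between the groups on deposited values are given as values. Upstream of Pck1, the rate-limiting enzyme of glucose synthesis, NONMMUT041547.2 had 0.873, 0.476, 0.589 and 0.709 FPKM on high fat and 1.92, 1.71, 1.79 and 2.01 with resveratrol (0.79, SE 0.14, limma adjusted p = 0.0515). It was called in 7 of 19 alternatives and not on scaled values (limma adjusted p = 0.1003). The mean on ordinary feed was 3.15 FPKM. An intronic feature of Slc16a10, a transporter of aromatic amino acids, had 4.13, 1.99, 1.84 and 2.54 FPKM on high fat and 6.71 to 7.60 with resveratrol (1.21, SE 0.24, limma adjusted p = 0.0701). In the 3′ UTR of Crebzf, a leucine-zipper transcription factor, the values were 0.0355, 0.0258, 0.0352 and 0.403 FPKM on high fat and 1.40 to 1.95 with resveratrol (1.21, SE 0.24, limma adjusted p = 0.0701). Scaled, these 2 had 1.03 and 1.11 (limma adjusted p = 0.1003 and 0.0993). Features of the phosphatase gene Ptpn9 and of introns of Fam107b and Ube2k had changes of 0.71, 1.06 and 0.40, with limma adjusted p from 0.0525 to 0.0714. On scaled values they had 0.62, 0.88 and 0.26 (limma adjusted p = 0.0613, 0.115 and 0.239), and high-fat library 4 overlapped the resveratrol range at Fam107b and Ube2k. At each of these 6 the high-fat mean was also below the ordinary-feed mean. These features were picked because their high-fat values were low, so this order was favoured in advance and is no separate support.

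A stretch of chromosome 5 at Aacs held features with lower values under resveratrol that missed the threshold. Aacs activates acetoacetate, a ketone body, for the synthesis of cholesterol and fatty acids. The spanning feature NONMMUT119418.1 (125496681 to 125508255) had 4.43, 1.64, 2.98 and 2.09 FPKM on high fat and 0.0804, 0.284, 0.163 and 1.34 with resveratrol (-1.39, SE 0.27, limma adjusted p = 0.0611). Downstream of the gene by 4.06 kb, NONMMUT149179.1 had 3.53, 2.57, 2.92 and 2.25 FPKM on high fat and 0.0970, 0.214, 0.197 and 2.24 with resveratrol (-1.33, SE 0.27, limma adjusted p = 0.0733). Resveratrol library 4 was the high one in both, close to the high-fat level. Without it the limma adjusted p were 0.0127 and 0.000247, and both were called on scaled values (0.0244 and 0.0409), though not when high-fat library 4 was also left out (0.0782 and 0.0977). NONMMUT149180.1, 5.23 kb downstream, had a change of -1.06 (limma adjusted p = 0.0805), and a feature on the other side of Aacs, downstream of Bri3bp (NONMMUT149177.1), -1.15 (limma adjusted p = 0.0805). On scaled values both of these were called too (0.0395 and 0.0432). NONMMUT149180.1 reached 1 FPKM only in the high-fat libraries, so it was tested only through the group where it was high. NONMMUT149177.1 reached 1 FPKM only in high-fat and metformin libraries. Ordinary feed gave means of 0.0608 to 0.313 FPKM over these 4 features and metformin 0.375 to 0.655.

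The 250 bases before the Aacs start (RefSeq, GRCm38.p6, chr5:125475623-125475872, plus strand) are shown because the features on both sides of it were lower with resveratrol. Capitals mark GTAAACA, the forkhead element, 237 bases before the start, and none of the other 3 motifs has its letters in this window.
Aacs promoter: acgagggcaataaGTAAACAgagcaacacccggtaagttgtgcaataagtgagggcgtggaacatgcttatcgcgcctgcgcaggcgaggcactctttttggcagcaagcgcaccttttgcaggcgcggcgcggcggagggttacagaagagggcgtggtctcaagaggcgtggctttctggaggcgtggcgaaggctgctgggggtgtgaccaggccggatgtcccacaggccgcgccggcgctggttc

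Of the other features lower with resveratrol, a pair in introns of Atxn1, the ataxin 1 gene, had 5.14, 3.30, 7.49 and 3.88 FPKM on high fat against 1.32 to 2.21 (NONMMUT017329.2; -1.09, limma adjusted p = 0.0573) and 1.48, 2.74, 3.86 and 3.54 against 0.988 to 1.14 (NONMMUT017327.2; -0.89, limma adjusted p = 0.0841). The first was called on scaled values (-1.26, limma adjusted p = 0.00986), also without high-fat library 4 (0.0362). A spanning feature of Wnk1, a kinase that controls ion transport, was listed at 0 in all 4 resveratrol and all 4 metformin libraries, and at 1.30, 1.18, 1.25 and 1.33 FPKM on high fat. It was also listed at 0 in 1 of the 4 ordinary-feed libraries. A count of 0 allows up to 3 reads (counting error only, since amplified reads are not independent molecules), or 0.0645 FPKM in the shallowest resveratrol library. The high-fat mean of 1.27 FPKM was 19.6-fold above that limit. Counting error does not cover the on and off listing between libraries, and the feature was not called (limma adjusted p = 0.0573). The 5′ UTR feature of Nrep had 5.65, 1.80, 4.99 and 1.84 FPKM on high fat and 0.101 to 1.12 with resveratrol (-1.53, limma adjusted p = 0.0611). Intergenic features whose nearest coding genes were Nudt7, a peroxisomal coenzyme A hydrolase, and Rbfox2, a splicing factor, had -0.80 and -0.66 (limma adjusted p = 0.0846 and 0.0849). The Nudt7 feature reached 1 FPKM only in the high-fat libraries, so it was tested only through the group where it was high. The Rbfox2 feature reached 1 FPKM only in high-fat and metformin libraries. An intronic feature of C77080 had -0.64 (limma adjusted p = 0.0525). On scaled values those of Wnk1, Nrep, Nudt7 and Rbfox2 were called (limma adjusted p = 0.0287, 0.0207, 0.0244 and 0.0477), and C77080 was not (0.0626). When high-fat library 4 was also left out, those of Nrep and Nudt7 were still called (0.0362 each), and those of Wnk1 and Rbfox2 were not (0.0974 and 0.107).

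Genes on which resveratrol is known to act, and those of the pathways below them, were examined through the 1 feature linked to each gene. Of all features 0.0809% were called, so 0 calls in lists this small is no result about a list. In the list of energy sensors and sirtuins 14 of 38 genes had a feature, and 0 were called. At an unadjusted p under 0.05, 0 were higher and 1 lower, beside 13.6% and 2.62% of all features. Scaled values gave the same counts, beside 6.49% and 7.11%. The median change was 0.05, and -0.10 on scaled values. The lower one was an intronic feature of Prkaa2, a catalytic subunit of the AMP-activated kinase, with 2.94, 1.61, 3.47 and 1.203 FPKM on high fat and 0.905, 0.909, 1.65 and 1.10 with resveratrol (-0.58, SE 0.20, limma adjusted p = 0.202). High-fat libraries 2 and 4 lay inside the resveratrol range. On scaled values the groups did not overlap (-0.71, limma adjusted p = 0.0971). Nampt, which makes the cofactor of sirtuins, had -0.03 (SE 0.28, limma adjusted p = 0.964), and the phosphodiesterase Pde4b 0.09 (SE 0.23, limma adjusted p = 0.868). The other linked sirtuin, Sirt3, had 0.48 (SE 0.28, limma adjusted p = 0.398).

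Fat synthesis came next. Of 9 linked features among 25 genes, 0 were called. At an unadjusted p under 0.05, 1 was higher and 1 lower, beside 13.6% and 2.62% of all features. On scaled values 1 was higher and 2 lower at that p, beside 6.49% and 7.11%. The median was -0.15 (-0.37 scaled), beside 0.13 and -0.0038 over all features. Without high-fat library 4 the median was -0.38, with 0 higher and 2 lower at that p. On scaled values the list's Aacs feature was called lower (limma adjusted p = 0.0409). The 3′ UTR feature of Scd1, the stearoyl-CoA desaturase, was abundant, at 1832, 2322, 2256 and 702 FPKM on high fat and 701, 489, 391 and 1515 with resveratrol. Library 4 stood on the other side of its group in each, and the change of -1.26 had an SE of 0.63 (limma adjusted p = 0.335). Those of Fasn, the fatty acid synthase, and Elovl6, an elongase, had -0.23 and -0.44, and Acaca, the acetyl-CoA carboxylase, 0.04. Me1, which supplies NADPH, was the higher one (0.44, limma adjusted p = 0.215). Among 7 linked genes of triglyceride assembly, Gpam and Agpat3 had 0.39 and 0.41 and Dgat2 -0.23, with 0 called. At an unadjusted p under 0.05, 2 were higher and 0 lower, and 0 and 0 on scaled values, beside the same shares of all features.

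Among sterol genes, 0 of 9 linked features were called, beside 0.0809% of all features. At an unadjusted p under 0.05, 1 was higher and 1 lower, beside 13.6% and 2.62%. On scaled values the counts were 0 and 1, beside 6.49% and 7.11%. The 3′ UTR feature of Stard4, an intracellular cholesterol carrier, had 25.7, 20.5, 24.4 and 17.8 FPKM on high fat and 13.4, 15.7, 12.3 and 20.3 with resveratrol (-0.50, SE 0.21, limma adjusted p = 0.265). After scaling the groups no longer overlapped (-0.72, limma adjusted p = 0.109). Insig2, which holds back sterol-regulated transcription, had 0.77 (limma adjusted p = 0.289). For fatty acid oxidation 13 of 46 genes had a feature, with 0 called. At an unadjusted p under 0.05 there were 0, beside 13.6% of all features higher and 2.62% lower. There, Ppara had -0.08 (SE 0.21) and Cpt1a, the carnitine palmitoyltransferase of the outer mitochondrial membrane, had 0.06 (SE 0.22). None of 8 linked respiratory chain genes was called, and their changes ran from -0.12 to 0.25. At an unadjusted p under 0.05 there were 0 on either scale, beside the same shares of all features.

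**Figure D4:**
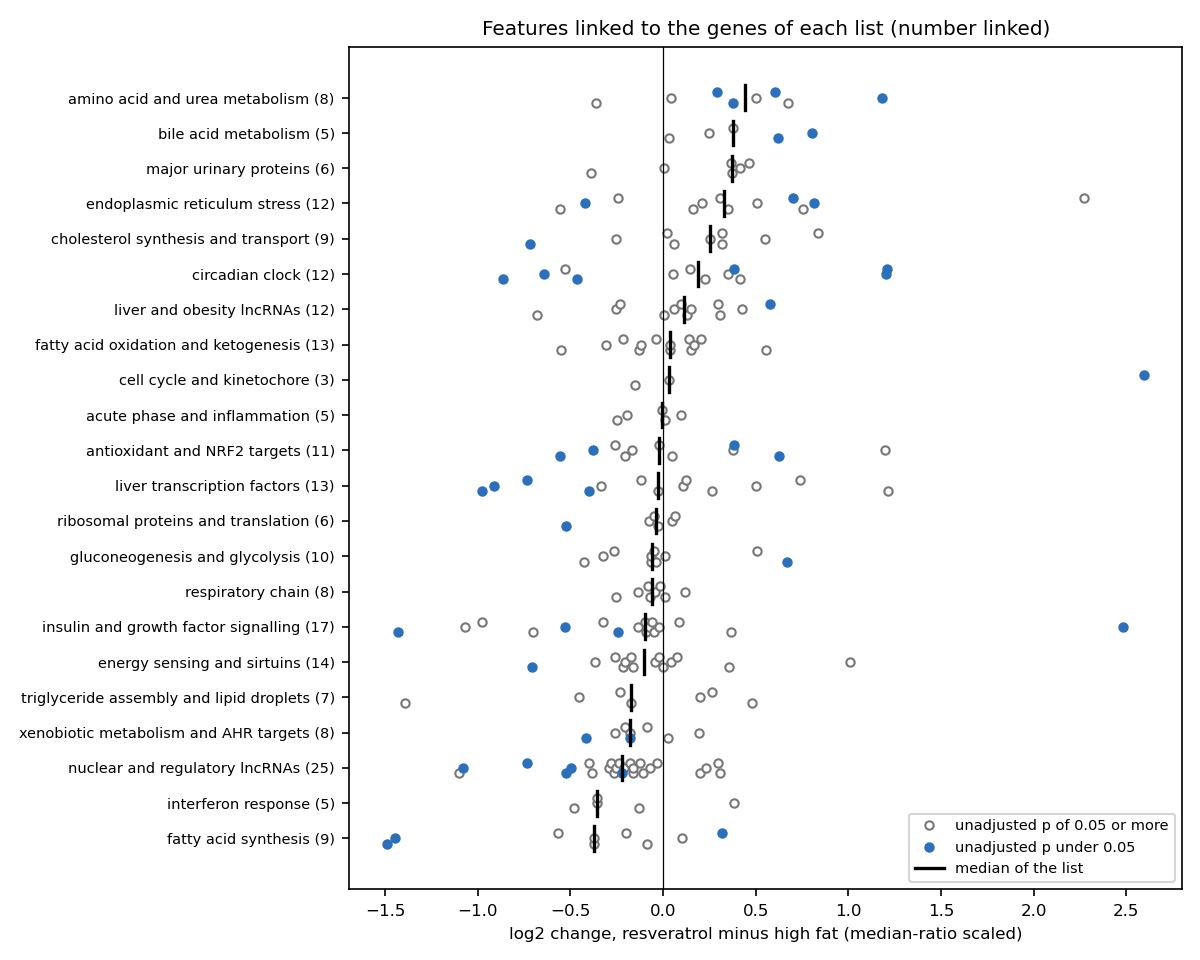
Points are features linked to the genes of each list, at their log2 change on median-ratio scaled values, filled at an unadjusted p under 0.05. Bars are list medians, which run from -0.37 for fatty acid synthesis to 0.44 for amino acid and urea metabolism, with -0.0038 over all tested features.

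Amino acid and urea metabolism had a feature for 8 of 37 genes. Of these 1 was called higher (Gldc) and 5 were higher at an unadjusted p under 0.05, beside 13.6% of all features, and the median was 0.62 (0.44 scaled). On scaled values 4 were higher at that p, beside 6.49%. Without high-fat library 4 the median was 0.43 and 2 features were higher at that p. The lncRNA Gm43314 in an intron of Cth, which makes cysteine from cystathionine, had 1.64, 1.44, 1.59 and 1.04 FPKM on high fat and 4.87, 2.54, 5.51 and 9.14 with resveratrol (1.33, SE 0.33, limma adjusted p = 0.117). The groups did not overlap. Glud1, the glutamate dehydrogenase, had 0.70 (limma adjusted p = 0.248), the mitochondrial aspartate carrier Slc25a13 0.55 and Dmgdh, of choline breakdown, 0.37. Gls2, the liver glutaminase, had -0.17. In the glucose list 0 of 10 linked features were called, and those of Pck1 and Ppp1r3b, a glycogen-targeting subunit of protein phosphatase, had the lowest p (0.79 and 0.72). At an unadjusted p under 0.05, 2 were higher and 0 lower, beside 13.6% and 2.62% of all features. On scaled values 1 was higher and 0 lower, beside 6.49% and 7.11%.

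Of 12 linked clock genes 0 were called, and 5 were higher and 3 lower at an unadjusted p under 0.05, beside 13.6% and 2.62% of all features. On scaled values these counts were 3 and 3, beside 6.49% and 7.11%, and on deposited values without high-fat library 4 they were 3 and 2. Around the clock the liver's activators and repressors peak at opposite times, and the labels do not give the hour of collection. The intronic feature of Clock, an activator, had 1.54, 1.85, 1.72 and 1.17 FPKM on high fat and 3.65, 2.72, 3.06 and 1.65 with resveratrol (0.53, SE 0.18, limma adjusted p = 0.197). A partly exonic feature of Per3, a repressor, had 3.81, 1.57, 2.79 and 2.07 FPKM on high fat and 0.949, 0.922, 0.400 and 2.57 with resveratrol (-0.73, SE 0.28, limma adjusted p = 0.233). Resveratrol library 4 was nearest to the high-fat level at both. Features of Noct, a rhythmic NADPH phosphatase, and Tsc22d3, a glucocorticoid-induced gene, had 1.38 and 1.35 (limma adjusted p = 0.202 and 0.192), Rora and Hlf 0.38 and 0.55, and Tef and Cry2 -0.48 and -0.33. Zbtb16, of the transcription factor list and also induced by glucocorticoids, had 18.4, 6.48, 7.65 and 2.39 FPKM on high fat and 26.6, 26.2, 11.04 and 21.7 with resveratrol (1.40, SE 0.60, limma adjusted p = 0.283).

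Of 12 linked genes of endoplasmic reticulum stress 0 were called, 4 were higher and 1 lower at an unadjusted p under 0.05 (13.6% and 2.62% of all features). The median was 0.48 (0.33 scaled), beside 0.13 (-0.0038 scaled) over all features. On scaled values that count was 2 higher and 1 lower (6.49% and 7.11% of all features). P4hb, a protein disulfide isomerase, had 2.36, 2.25, 2.56 and 1.52 FPKM on high fat and 4.10, 5.50, 6.74 and 3.21 with resveratrol in its intronic feature (0.87, SE 0.23, limma adjusted p = 0.144). Beside Herpud1, of protein quality control, a feature had 1.02, 1.47, 0.567 and 0.941 against 3.96, 2.92, 2.08 and 2.58 FPKM (0.96, SE 0.30, limma adjusted p = 0.186). Neither pair of groups overlapped. Pdia3 and the chaperone Canx had 0.94 and 0.51, and Syvn1, a ubiquitin ligase, -0.29. In bile acid metabolism 5 of 23 genes had a feature, 0 were called, and all 5 changes were positive, where the median over all features was 0.13. Of the 5, 2 were higher at an unadjusted p under 0.05, beside 13.6% of all features. Klb, the co-receptor of fibroblast growth factor 15, had 0.71 and the small RNA Gm22036 in an intron of the transporter Slco1a1 0.92, with limma adjusted p of 0.202 and 0.163, and Cyp7a1, the rate-limiting enzyme, 0.46 (limma adjusted p = 0.523).

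Antioxidant genes had 0 of 11 linked features called. At an unadjusted p under 0.05, 2 were higher and 0 lower, beside 13.6% and 2.62% of all features. On scaled values 2 were higher and 2 lower, beside 6.49% and 7.11%. The list median was 0.19, and -0.02 on scaled values. A feature beside Cat, the catalase, had 0.343, 0.416, 0.227 and 0.472 FPKM on high fat and 1.22, 0.973, 0.747 and 0.679 with resveratrol (0.48, SE 0.14, limma adjusted p = 0.174), and Aox3, an aldehyde oxidase, had 0.84 (limma adjusted p = 0.222). At Cat the groups overlapped on scaled values (0.38, limma adjusted p = 0.278). Prdx1, a peroxiredoxin, had -0.37, and on scaled values its groups did not overlap (-0.55, limma adjusted p = 0.155). Sod1 had -0.17 (-0.38 scaled, limma adjusted p = 0.257), with every resveratrol value below every high-fat value on both scales. In the 3′ UTR of Gsr, the glutathione reductase, the feature was on in 1 high-fat library (19.8 FPKM) and 2 resveratrol libraries (33.5 and 35.8 FPKM) and at 0.287 FPKM or less in the rest. Xenobiotic, inflammatory and interferon lists, with 8, 5 and 5 linked features, had 0 called and 0 at an unadjusted p under 0.05. On scaled values 2 of the xenobiotic list were lower at that p, beside 7.11% of all features. Of 13 linked liver transcription factors 0 were called, with 1 higher and 1 lower at that p, beside 13.6% and 2.62%. The counts were 0 and 4 on scaled values, beside 6.49% and 7.11%, and 0 and 3 when high-fat library 4 was also left out. Beside Onecut1 a feature had 3.17, 1.52, 2.94 and 1.88 FPKM on high fat and 0.434, 0.447, 2.06 and 0.801 with resveratrol (-0.85, SE 0.26, limma adjusted p = 0.183), and near Foxa2 -0.52 (limma adjusted p = 0.327).

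Named long non-coding RNAs showed no calls in 25 nuclear and regulatory RNAs (2 higher and 4 lower at an unadjusted p under 0.05) and 12 liver and obesity RNAs (3 and 0), where 13.6% and 2.62% of all features were. On scaled values the counts were 0 and 5, and 1 and 0, beside 6.49% and 7.11%. On deposited values without high-fat library 4 they were 1 and 1, and 1 and 0. Snhg20, a host gene of a small nucleolar RNA, had 7.40, 7.82, 9.19 and 8.43 FPKM on high fat and 5.69, 1.91, 4.91 and 4.31 with resveratrol (-0.89, SE 0.26, limma adjusted p = 0.170), and its groups did not overlap. Jpx, an activator of X inactivation, had 0.41 (limma adjusted p = 0.180), and Mir22hg, the host of a microRNA, 0.52 (limma adjusted p = 0.283). Gm15441, which lies over the Txnip gene, had 2.16, 5.11, 3.39 and 2.85 FPKM on high fat and 4.20, 8.43, 8.69 and 2.75 with resveratrol, against a mean of 24.2 on ordinary feed (0.61, SE 0.47, limma adjusted p = 0.521). Malat1 and Neat1, abundant nuclear RNAs, each had a single resveratrol library far above the others. Malat1 had 151 FPKM in library 3 and 6.95 to 9.98 in the others, and Neat1 109 in library 1 and 10.2 to 18.9 in the others. On high fat Malat1 also had 1 library apart, at 72.1 FPKM against 3.05 to 11.7 in the others. The 7SL RNA gene Rn7s1 had -0.30 (SE 0.13, limma adjusted p = 0.290).

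Several coding genes carried runs of neighbouring features that moved together. Genes with at least 3 features at an unadjusted p under 0.01 in 1 direction (4.01% of all features higher and 0.904% lower, or 1.88% and 2.56% on scaled values) were picked out after the values were seen, and the runs have no test. Neighbouring features can share reads of the same precursor transcript and are not independent. Upstream of Pck1 all 6 features had positive changes, from 0.41 to 0.79, of which 3 passed that p, also on scaled values and without high-fat library 4. In Rtn3, of the reticulon family that shapes the endoplasmic reticulum, the 6 features lay between 0.29 and 0.53, and all 6 had resveratrol values above every high-fat value, as did 6.91% of all features (5 on scaled values, against 3.39%). Within Ptprd, a receptor phosphatase, 7 of 13 features passed, and those in 1 end of the gene lay between 0.53 and 0.73 while the 5 at its other end had -0.10 to 0.26. That count was 5 on scaled values, 3 on deposited values without high-fat library 4 and 2 on scaled values without it. Eipr1, of endosome transport, had 11 of 88 (median 0.65), but on scaled values 1, on deposited values without high-fat library 4 1, and on scaled values without it 0.

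Downward, the 4 Aacs features, which are the 3 described above and the spanning NONMMUT119417.1, whose groups overlapped (-1.20, limma adjusted p = 0.148), had a median of -1.26 (-1.39 scaled), and all 4 passed on both scales and without high-fat library 4. Among them NONMMUT149180.1 was tested only through its high-fat values, as given above. In Tacc1 all 16 features had negative changes, from -0.82 to -0.24. In 8 of them every resveratrol value lay below every high-fat value, against 1.03% of all features (8 on scaled values, against 3.99%). The count at an unadjusted p under 0.01 was 5, or 11 on scaled values, 2 on deposited values without high-fat library 4 and 4 on scaled values without it. B3galt1, a galactosyltransferase gene, had 11 features with changes from -1.14 to -0.42. There 5 passed, or 8 on scaled values, 0 on deposited values without high-fat library 4 and 2 on scaled values without it. Around Foxa2, a liver transcription factor, 1 of 25 passed on deposited values and 4 on scaled ones, or 1 on either scale without high-fat library 4. Relative to metformin the medians were -0.11 at Aacs, 0.12 at Tacc1 and -0.28 at B3galt1, and relative to ordinary feed 0.28, 0.07 and -0.02.

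**Figure D5:**
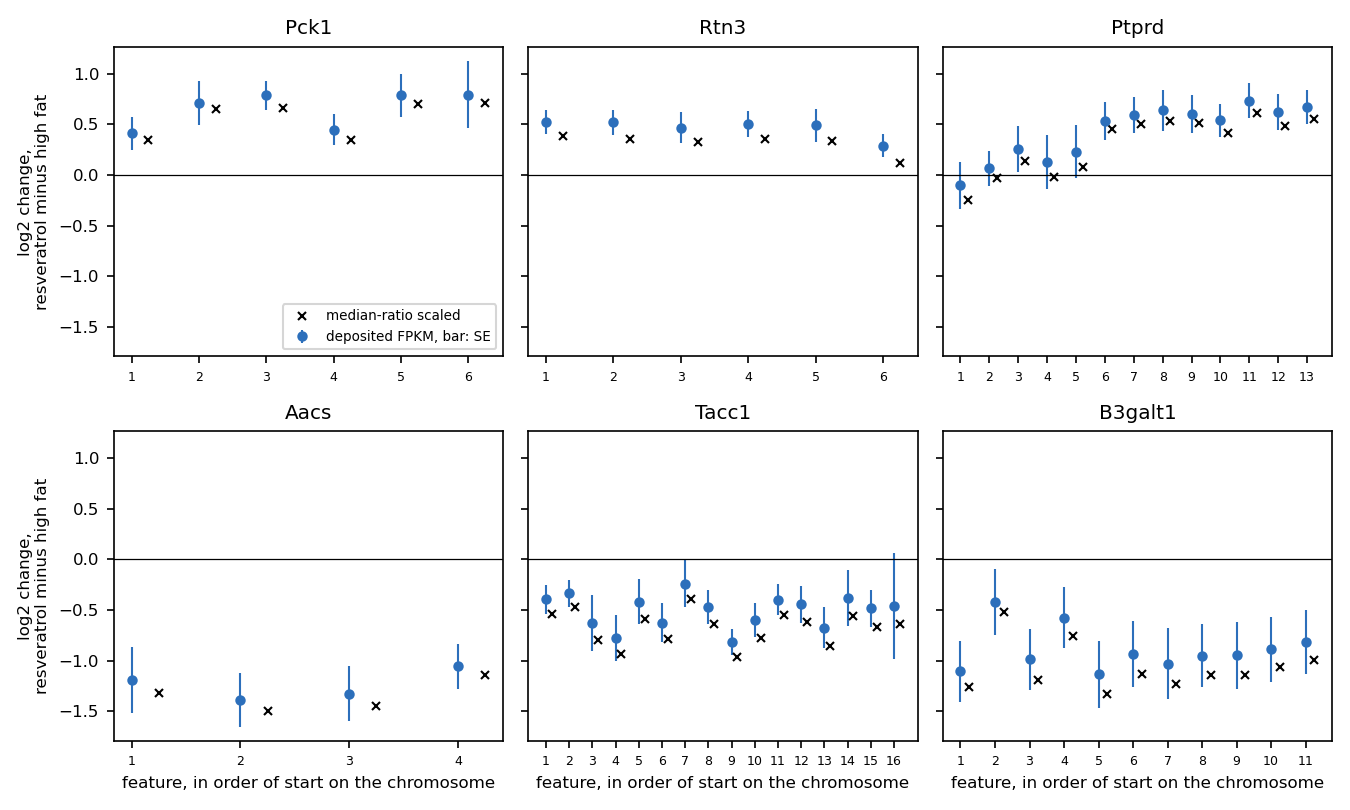
Each panel shows the tested features of 1 gene in order along the chromosome, with the log2 change on deposited values (circles, bars are SE) and on median-ratio scaled values (crosses). The Pck1 and Rtn3 features all lie above 0, those of Aacs, Tacc1 and B3galt1 all below, and Ptprd splits into a flat run of 5 and a higher run of 8.

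By position, intronic features were at an unadjusted p under 0.05 in the higher direction in 17.8% of 2822, intergenic in 13.6% of 1606 and exonic in 6.23% of 1140. The share over all features was 13.6%. In the lower direction the shares were 2.27%, 2.99% and 2.19%, beside 2.62%. On scaled values the higher shares were 8.33%, 7.60% and 3.42%, beside 6.49% of all features. The lower shares were then 7.19%, 6.91% and 4.65%, beside 7.11%. On scaled values without high-fat library 4 intronic features had 6.02% higher and 6.13% lower. Intergenic features then had 5.04% and 5.79%, and exonic features 2.28% and 4.21%. The intronic share of reads was higher with resveratrol, as given above, but did not pass adjustment (exact permutation adjusted p = 0.286). Exonic features took 29.5% of those reads with resveratrol and 34.1% without (exact permutation p = 0.0571, adjusted p = 0.286). The part of these read shares in the shares of features was not tested.

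The tissue label could be checked only in part, since the files hold no coding transcripts. Of 14 hepatocyte markers 1 had a linked feature (Apoa1), and of the periportal and pericentral markers 4 of 13 and 2 of 14. Summed FPKM of those features was 19.003 to 25.2 on high fat and 21.4 to 26.2 with resveratrol for the periportal list, and 3.43 to 14.8 and 3.35 to 17.1 for the pericentral list. No marker of macrophages, lymphocytes, neutrophils, erythroid cells, adipocytes, muscle or pancreas was linked to a tested feature. Stellate, endothelial and cholangiocyte markers had 1, 2 and 1 linked features, with changes from -0.19 to 0.15. Of 7 markers of progenitors and fetal liver 1, Peg3, had a linked feature, the one at 1.97 given above (1.89 scaled, limma adjusted p = 0.105), without overlap between the groups. The cell makeup of these libraries was not resolved.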

How the data were processed

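Total RNA of 16 mouse livers was sequenced (TruSeq library, Illumina NovaSeq, per the labels' protocols). The authors deposited 1 table of long non-coding transcripts per library, in FPKM. Per the submitters' processing notes, Bowtie 0.12.2, Cufflinks 2.1.1 and GRCm38 were used. The annotation release, the strand setting and the filtering remain not given in the sources used here. Transcripts of an Ensembl gene were summed, and features with at least 1 FPKM in at least 4 of 16 libraries were tested.

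Log2(FPKM + 1) was fitted with limma 3.58.1 (R 4.3.3), with a mean-variance trend, as 4 group means over all 16 libraries, which leaves 12 residual degrees of freedom. P-values were adjusted by Benjamini-Hochberg over 7413 features and called under 0.05. A pseudocount of 1 understates the change of low features. Median ratios came from 7129 features. In steps of 1 read, 100% of values were whole within 0.05 read, which gave the library totals. In simulated data for this comparison, 92.5% of 200 features changed by 2 on the log2 scale were recovered among 7413. Changes were added to log2(FPKM + 1), so low features shifted down took negative values that FPKM cannot give. Recovery of decreases near the floor was therefore not measured. Residuals were shuffled over the libraries within each feature, so differences shared by a whole library, such as high-fat library 4, were not kept. The changes of the called features at Acnat1, Gldc, Sox5 and Tacc1 were smaller than 2, and recovery of such changes was not simulated.

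Features were placed on GENCODE coding genes without strand. A gene was represented by its linked feature (exonic, partly exonic, intronic, within 5 kb, or the listed RNA itself) with the highest mean FPKM. Named features were up to 12 in each direction without overlap, called ones first and then those of lowest p, the features of chosen key genes, and up to 3 per list. Some of these are not reported here. Other features (on and off features, widest changes, runs of neighbours) were chosen after their values were seen. The comparison, members and lists were chosen with earlier results of these data known. For library measures the two-sided exact permutation test was used (scipy 1.17.1). Alternatives covered scaling, pseudocount, filter, weights, transcript merging, groups fitted and each library left out.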

Additional observations from a re-analysis of the deposited data

Results flagged for a closer look

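Of 229 groups of 4 libraries checked, 17 held a library far from the other 3 by Dixon's criterion. For independent normal values chance alone gives about 1 in 20. The values checked include on and off features, neighbouring features and features picked by value, so that rate does not apply to them. Among features lower with resveratrol, a single resveratrol library was high at Aacs (NONMMUT119418.1 at 1.34 FPKM, NONMMUT149179.1 at 2.24 and NONMMUT149180.1 at 0.996, each in library 4) and near Rbfox2 (0.855 FPKM in library 3). Among features higher with resveratrol, high-fat library 4 was high at Crebzf (0.403 FPKM).

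In on and off features, 1 high-fat library stood apart at Sirt1 (3.60 FPKM), Sc5d (0.0641 FPKM, against 20.6 to 23.9 in the others) and Gsr (19.8 FPKM). Malat1 stood apart in 1 high-fat library (72.1 FPKM) and 1 resveratrol library (150.6 FPKM), and Neat1 in 1 resveratrol library (109.0 FPKM). Single resveratrol libraries stood apart beside Ppara (89.1 FPKM), in Atp5c1 (2.19 FPKM) and beside Bst2 (0.336 FPKM). Single high-fat libraries did so for Gm15502 (7.42 FPKM) and 1810017P11Rik (4.82 FPKM). The share of reads in partly exonic features was 11.2% in high-fat library 4 and at most 9.79% in the other 3.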

How the results depend on the processing

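The 6 calls between resveratrol and high fat became 13 after median-ratio scaling or quantile normalization (3 higher and 10 lower in each), 13 with the filter applied within the 8 libraries (7 and 6), 38 with array weights (21 and 17), 2 with no filter, and 1 to 57 with 1 library left out. Against ordinary feed the 21 calls became 35 after median-ratio scaling, 61 when high-fat library 4 was also left out, 13 with a pseudocount of 0.1, 2 with no filter, 85 with array weights, 7 with limma-voom, and 1 to 16 with 1 library left out. Against metformin the 0 calls became 2 with no filter and 0 to 1 with 1 library left out. With 1 library left out, differences in percent of reads ran from -4.01 to 0.192 (ribosomal RNA locus), 2.16 to 3.10 (intronic), 1.57 to 3.20 (intergenic), -5.84 to -3.74 (exonic), -0.353 to 0.413 (spanning) and -0.273 to 0.211 (partly exonic), and that in median ratio from 0.0665 to 0.185. As shares of FPKM they were 1.74 (intergenic), -5.35 (exonic), 0.585 (spanning) and 0.354 (partly exonic). On and off features fell from 308 to 197 at a gap of 20 times, chosen after seeing the data. Of 1955 values for single features under alternatives, 1838 kept direction and side of the threshold, 77 passed it newly and 40 no longer did. Most of these features were not called at first and so could not lose a call. All 40 losses fell on the calls at Igfbp2, Acnat1, Gldc, Sox5 and Tacc1. The causes were not tested. Called features at 8 to 18 reads per high-fat library (Gldc) or 5 to 9 (Mis12) are limited by depth. No paired analysis was possible because the labels give no replicate numbers shared between the groups.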
